A study of Drosophila melanogaster with 24 samples.

Results

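Whole larvae without Su(Hw) function (su(Hw)/Df) were set against larvae of the su(Hw)v heterozygote (su(Hw)/+), with 4 arrays of each genotype. These are 8 of the 24 arrays of the series, taken by their genotype labels. Of 14444 probes analysed, 8431 had 3 or more values in both genotypes and were tested. Each array gave the log2 ratio of 1 genotype to a single pool of wild-type RNA, and the pool cancels when the genotypes are subtracted. All differences below are log2 differences, su(Hw)/Df minus su(Hw)/+, so that 1 stands for 2-fold, and a probe was called where its Benjamini-Hochberg adjusted p from limma was under 0.05.

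The su(Hw)/Df larvae carried a chromosome with su(Hw)v and the transposon P[CaS X/K5.3] over Df(3R)ED5644, a deletion given as 600 kb that removes su(Hw) and its neighbours. They were the non-Tubby progeny of a cross between both mutant stocks, each kept over the balancer TM6B, Tb. The su(Hw)/+ larvae carried the same chromosome, with su(Hw)v and its transposon, over a wild-type Oregon R chromosome, from an outcross. The su(Hw)v chromosome and its transposon were therefore common to all 8 samples, while the deletion was in su(Hw)/Df alone. There the genes it spans were left with only what the su(Hw)v chromosome carries. The paper describes that strain as null for su(Hw). The loss of su(Hw), the deletion of its neighbours and the Oregon R chromosome cannot be told apart in this comparison by itself. Larvae heterozygous for the deletion (Df/+) from the same series separate them in part, and their means are given beside the results as values. Each sample was 10 or 20 larvae at the white pre-pupal stage, described as 1 of 4 independent biological replicates. The pool came from 18 collections of Oregon R larvae.

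Su(Hw), the Suppressor of Hairy-wing, is a zinc finger DNA-binding protein of Drosophila. It was found through the gypsy retrotransposon, whose insulator it binds together with Mod(mdg4) and CP190. An insulator placed between an enhancer and a promoter keeps the enhancer from acting on that promoter. Flies without Su(Hw) are viable, and the females are sterile. In whole larvae, RNA of many tissues is mixed, so fewer cells of a type and less RNA per cell cannot be told apart.

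The number of spots with a value ranged from 9900 to 10604 on the su(Hw)/Df arrays and from 9110 to 10470 on the su(Hw)/+ arrays. Because of this filter, 1123 probes had 3 or more values in su(Hw)/Df but fewer in su(Hw)/+, 476 the reverse, and 4414 too few in both. The fourth su(Hw)/Df array stood apart in some tissues: it was the lowest of its genotype for 33.7% of the 7642 probes measured on all 4, but for 10 of 12 muscle structural genes, 13 of 16 structural cuticle protein genes and 11 of 14 Jonah proteases. The fourth su(Hw)/+ array was in part alike: it was the lowest of its genotype for 25.2% of 7259 probes, but for 11 of 16 cuticle and 5 of 12 muscle genes. For the Jonah proteases it was lowest in 5 of 14, and the first su(Hw)/+ array in 9. Without the fourth su(Hw)/Df array, the median over all probes was 0.03. List values without it are given below where the median moved by over 1.5 times or the number of calls changed. List values without the fourth su(Hw)/+ array are not given, so this check is one-sided.

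In all, 91 of 8431 probes were called (1.08%), 30 of them higher in su(Hw)/Df (0.356%) and 61 lower (0.724%). The called probes with 1 gene symbol stood for 80 genes, and 10 probes had no single symbol. The rises were between 0.85 and 3.58 with a median of 1.54, and the falls were between -0.85 and -3.20 with a median of -1.44. A change of at least 2-fold was seen in 27 of the 30 and in 56 of the 61. For every called probe the 4 su(Hw)/Df arrays and the 4 su(Hw)/+ arrays did not overlap, which was also so for 9.23% of all probes tested. All 91 went the same way in the Cy3 and in the Cy5 arrays taken alone, which the lack of overlap fixes in advance. An unadjusted p under 0.05 was found for 1113 probes (13.2%). The median difference over all probes was -0.0023 and the median standard error was 0.24.

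The number of calls depended on the error model. With the dye as a block, 179 probes were called, 70 higher and 109 lower, and all 91 were among them. When the Df/+ arrays shared the estimate of the spread, 167 were called. Leaving out single arrays gave 46 to 81 calls. The counts were under 61 without the third su(Hw)/Df array (51), and without the first (52), the second (58), the third (46) or the fourth (48) su(Hw)/+ array. In each of these fits all 91 probes kept their direction, and 41 probes, 14 higher and 27 lower, were called in all 8 of them.

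**Figure D1:**
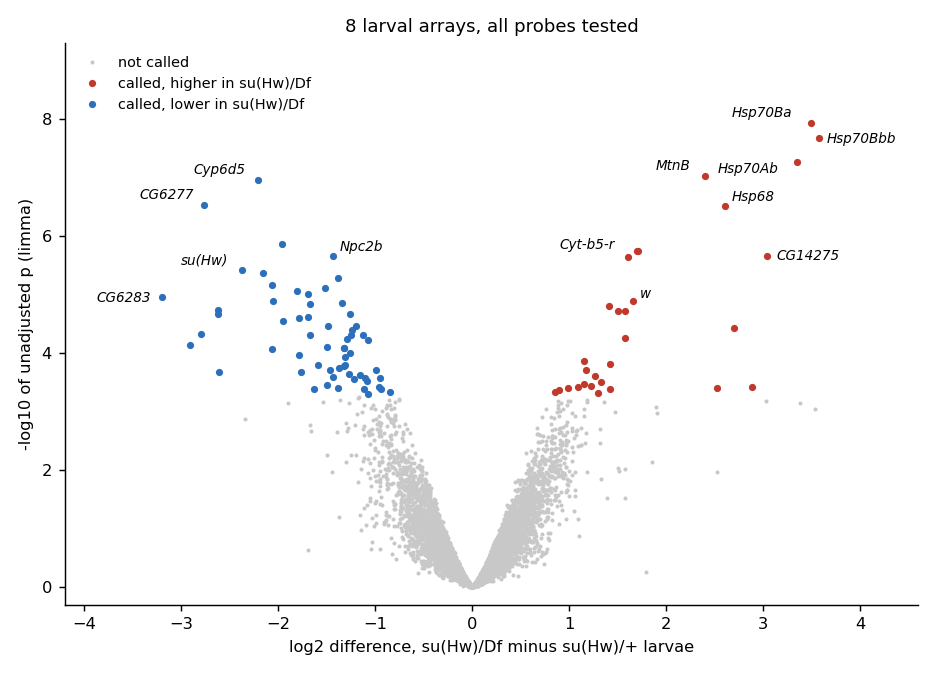
Each point is 1 of the 8431 probes tested; the x axis is the log2 difference, su(Hw)/Df minus su(Hw)/+ larvae, and the y axis is -log10 of the unadjusted limma p. Red points are the 30 probes called higher in su(Hw)/Df, blue points the 61 called lower, and the Hsp70 probes stand furthest up on the right.

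The su(Hw) transcript itself served as a check of the labels. Its log2 ratios to the pool were -2.76, -2.19, -3.36 and -3.36 on the su(Hw)/Df arrays, and -0.86, -0.61, -0.42 and -0.28 on the su(Hw)/+ arrays. Every su(Hw)/Df value was thus below every su(Hw)/+ value. The difference was -2.37 ± 0.28 (SE; limma adjusted p = 0.00234), a 5.19-fold lower signal. An exact 2-sided permutation test gave p = 0.0286, with 2 of 70 splits as large, the smallest p that 4 against 4 allows. Df/+ larvae averaged -0.33 for this probe.

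The genes tied to the transposon behaved differently from each other. The vectors called CaSpeR carry a marker copy of w (white), which encodes a transporter of eye pigment precursors. The w probe read 2.42, 2.03, 2.64 and 2.13 on su(Hw)/Df arrays, against 0.25, 0.63, 1.02 and 0.70 on su(Hw)/+ arrays. It was higher in su(Hw)/Df by 1.66 ± 0.22 (SE, adjusted p = 0.00475, limma), although the su(Hw)v chromosome with its transposon was present once in both genotypes. Df/+ larvae, which lack that transposon, averaged 1.12. Deletions made in the DrosDel collection generally carry a w marker too, which is background knowledge that the labels do not state for this deletion, and its part in the w values was not tested. Of the other 3 eye pigment genes tested none was called, and ry, the xanthine dehydrogenase gene, had -0.89 (limma adjusted p = 0.12). Polr2I, the RNA polymerase II subunit gene next to su(Hw), averaged 0.97 ± 0.30 on su(Hw)/Df arrays, against 1.29 ± 0.25 on su(Hw)/+ arrays (SD, n = 4 each). The difference of -0.32 was not called (limma adjusted p = 0.583; 95% interval -0.78 to 0.15). In Df/+ larvae the Polr2I mean was -0.71, so both genotypes with the transposon lay above the pool and the one without it below.

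The 3 largest rises were Hsp70 genes. The Hsp70 genes encode the stress-inducible cytosolic chaperone, and Hsp68 is a related inducible gene. Hsp70Bbb read 3.63, 2.70, 3.29 and 3.65 on su(Hw)/Df arrays, against -0.38, 0.06, -0.18 and -0.54 on su(Hw)/+ arrays. Hsp70Ba read 3.37, 2.44, 3.19 and 3.12 on su(Hw)/Df arrays, against -0.42, -0.30, -0.40 and -0.73 on su(Hw)/+ arrays. Hsp68 read 2.63, 2.56, 3.08 and 3.23 on su(Hw)/Df arrays, against -0.00, 0.53, 0.60 and -0.03 on su(Hw)/+ arrays. All su(Hw)/+ arrays were near the pool for these genes and all su(Hw)/Df arrays were far above it. The differences were 3.58 ± 0.24 (Hsp70Bbb), 3.49 ± 0.23 (Hsp70Ba), 3.34 ± 0.25 (Hsp70Ab) and 2.60 ± 0.23 (Hsp68; SE), or 11.9-fold, 11.3-fold, 10.2-fold and 6.07-fold, with limma adjusted p between 8.84e-05 and 0.000375. The Hsp70 genes are near-identical copies, so their probes may read the same transcripts, and they are not separate observations. Hsp60C, a mitochondrial-type chaperonin gene, was also higher, by 1.32 ± 0.25 (SE, limma adjusted p = 0.0361). That call was lost in each of the 8 fits without 1 array.

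The heat shock list did not hold Hsp60C. Of its 9 genes tested 4 were called, all higher, and the list's median was 1.36, against -0.0023 over all probes. The other 5 lay between 0.02 and 1.36 and were not called. All 9 were above 0, and 6 had an unadjusted p under 0.05. Without the fourth su(Hw)/Df array 5 were called and 8 were above 0. In Df/+ larvae the means were 1.37 for Hsp70Bbb, 0.71 for Hsp70Ba, 1.24 for Hsp70Ab and 1.10 for Hsp68. These means lay above the pool, and for all 4 genes nearer to su(Hw)/+ than to su(Hw)/Df. The Df/+ arrays were split by dye, however, with both Cy3 arrays above both Cy5 arrays for all 4 genes. Hsp70Bbb read 1.84 and 2.61 in Cy3, against 0.56 and 0.47 in Cy5 (SD 1.04, n = 4). Hsp70Ab read 1.52 and 2.07 in Cy3, against 0.71 and 0.65 in Cy5. For Hsp70Bbb and Hsp70Ab both Cy3 values lay nearer to the su(Hw)/Df mean than to the su(Hw)/+ mean. For Hsp70Ba (1.35 and 1.13 in Cy3) and Hsp68 (1.92 and 1.26) only the first Cy3 value did. The side taken by Df/+ larvae is therefore uncertain.

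**Figure D2:**
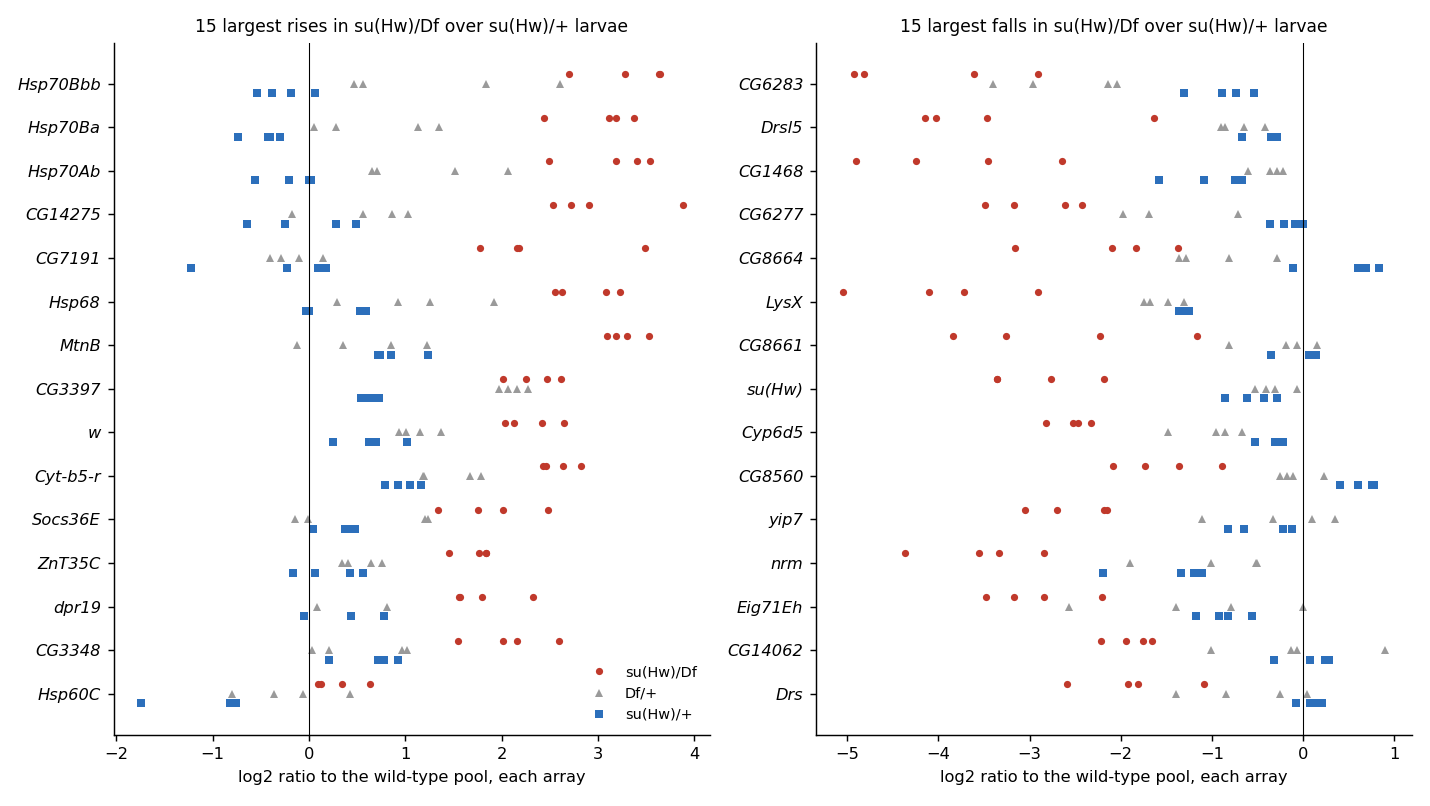
Log2 ratio to the wild-type pool on each of 4 arrays per genotype, for the 15 named genes with the largest rises (left) and falls (right); circles are su(Hw)/Df, triangles Df/+ and squares su(Hw)/+. Circles and squares do not overlap for any of these genes, and the triangles of the Hsp70 genes and of CG3397 lie away from the squares.

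MtnB, MtnA and ZnT35C, genes whose products handle metals, were called higher. Metallothioneins are small cysteine-rich proteins that bind copper, zinc and cadmium. MtnB read 3.19, 3.53, 3.10 and 3.31 on su(Hw)/Df arrays, against 1.24, 0.85, 0.74 and 0.71 on su(Hw)/+ arrays. It was 5.27-fold higher in su(Hw)/Df (2.40 ± 0.19 SE, limma adjusted p = 0.000185), and Df/+ larvae, at 0.58, were on the side of su(Hw)/+. MtnA read -0.35, -0.26, -0.47 and -0.58 on su(Hw)/Df arrays, against -1.12, -1.19, -1.51 and -1.24 on su(Hw)/+ arrays. Both groups of MtnA lay below the pool, and the rise of 0.85 ± 0.17 (SE, limma adjusted p = 0.0444) was not called in any fit without 1 array. MtnD had 0.88 ± 0.28 and was not called (limma adjusted p = 0.191), so that 2 of 3 metallothionein genes tested were called, with a list median of 0.88 (1 of 3 called without the fourth su(Hw)/Df array). ZnT35C, a zinc transporter gene, read 1.83, 1.77, 1.84 and 1.46 on su(Hw)/Df arrays, against 0.42, 0.57, -0.16 and 0.07 on su(Hw)/+ arrays. Its rise was 1.502 ± 0.21 (SE, limma adjusted p = 0.00561).

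The other large rises came from genes of mixed roles. CG14275 read 2.53, 2.91, 2.72 and 3.88 on su(Hw)/Df arrays, against 0.28, -0.65, 0.49 and -0.25 on su(Hw)/+ arrays, a difference of 3.04 ± 0.33 (SE). CG7191 rose by 2.70 ± 0.40, and CG3348 by 1.42 ± 0.25 (SE). Socs36E, a target and inhibitor of the JAK/STAT pathway, read 2.49, 1.76, 2.02 and 1.35 on su(Hw)/Df arrays, against 0.40, 0.48, 0.38 and 0.04 on su(Hw)/+ arrays. All 4 su(Hw)/Df larval samples were thus above the highest su(Hw)/+ value for each of these genes. Cyt-b5-r, a relative of cytochrome b5, rose by 1.61 ± 0.18, and dpr19, an immunoglobulin-superfamily gene with 3 su(Hw)/+ values, by 1.43 ± 0.27 (SE). CG3397, annotated as an aldo-keto reductase, averaged 2.34 ± 0.26 on su(Hw)/Df arrays, against 0.64 ± 0.08 on su(Hw)/+ arrays (SD, n = 4 each). Its Df/+ mean was 2.12, the nearest to su(Hw)/Df among the 15 largest rises. The limma adjusted p of these 7 genes lay between 0.00146 and 0.0409. Of the 8 fits without 1 array, dpr19 was called in 0, CG3348 in 1 and Socs36E in 7.

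Digestive enzymes were prominent among the falls. CG6283 and CG6277 are neighbouring genes of the lipase family. CG6283 read -3.60, -2.91, -4.93 and -4.81 on su(Hw)/Df arrays, against -1.30, -0.53, -0.88 and -0.73 on su(Hw)/+ arrays. CG6277 read -2.43, -2.61, -3.18 and -3.49 on su(Hw)/Df arrays, against -0.09, -0.20, 0.01 and -0.36 on su(Hw)/+ arrays. The falls were 9.19-fold (-3.20 ± 0.41) for CG6283 and 6.79-fold (-2.76 ± 0.25 SE) for CG6277, with limma adjusted p of 0.0044 and 0.000375. Df/+ means were -2.64 and -1.46, so the deletion heterozygote was low for both lipases too. All 5 lipase genes tested were below 0, with a median of -1.18, and 2 were called.

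Among the serine proteases of the midgut, yip7, Jon74E and Jon65Aiv were called. yip7 read -2.15, -2.70, -2.18 and -3.05 on su(Hw)/Df arrays, against -0.65, -0.12, -0.22 and -0.82 on su(Hw)/+ arrays, a fall of 2.07 on the log2 scale (SE 0.25). Jon74E had a difference of -1.67 ± 0.26 and Jon65Aiv of -1.25 ± 0.19 (SE; limma adjusted p = 0.00999 for both), and Jon65Aiv was called in 7 of the 8 fits without 1 array. Df/+ larvae averaged -0.25, 0.19 and 0.04 for these 3 genes, but for each of them both Cy3 arrays lay above both Cy5 arrays. The Df/+ arrays read 0.35 and 0.10 in Cy3 for yip7, against -1.11 and -0.33 in Cy5. Of 14 Jonah genes tested 2 were called lower, 11 were below 0 and the median was -0.66. Jon99Fi (-1.68) and Jon99Fii (-1.50) had differences as large but were not called (limma adjusted p = 0.0848 and 0.154), with an SD of 0.86 and 0.96 among the su(Hw)/Df arrays. All 7 trypsin genes tested were below 0, with a median of -0.998, and none was called; 5 had an unadjusted p under 0.05, among them gammaTry (-1.18, limma adjusted p = 0.0531) and alphaTry (-0.998, limma adjusted p = 0.0606).

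Over the 34 genes of the Jonah, trypsin, lysozyme, lipase, maltase and amylase lists, 28 were below 0, 5 were called lower, 0 higher, and the median was -0.63. Without the fourth su(Hw)/Df array the same 34 genes had a median of -0.35, with 23 below 0 and again 5 called lower. With the dye as a block 9 were called lower. The maltase and amylase list had 0 of 5 called and a median of -0.05 (0.16 without the fourth su(Hw)/Df array). CG8560, annotated as a zinc carboxypeptidase, read -1.36, -0.89, -1.73 and -2.08 on su(Hw)/Df arrays, against 0.75, 0.61, 0.78 and 0.41 on su(Hw)/+ arrays (difference -2.15 ± 0.25 SE, limma adjusted p = 0.00245).

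**Figure D3:**
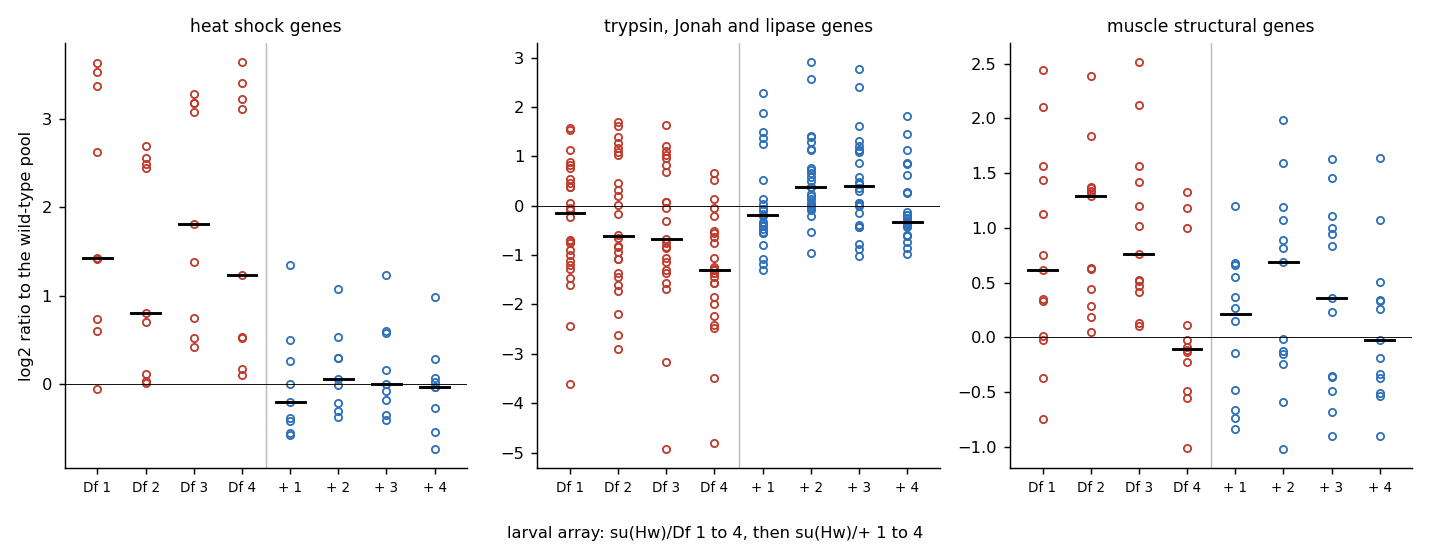
Log2 ratio to the pool of each list member (open circles) on the 4 su(Hw)/Df arrays (red) and the 4 su(Hw)/+ arrays (blue), with the median of each array as a bar. In the heat shock list all su(Hw)/Df medians are above all su(Hw)/+ medians; the fourth su(Hw)/Df array has the lowest median of its genotype for the protease and lipase genes and for the muscle genes.

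LysX, already counted in the digestive lists above, and the genes Drs and Drsl5 also fell. LysX, a lysozyme gene, read -3.71, -2.91, -4.10 and -5.05 on su(Hw)/Df arrays, against -1.25, -1.35, -1.36 and -1.33 on su(Hw)/+ arrays. Its fall was 6.14-fold (-2.62 ± 0.37 SE, limma adjusted p = 0.00595), with Df/+ at -1.55. The same family held LysB, with 4.97 ± 0.70 on su(Hw)/Df arrays, against 3.06 ± 0.81 on su(Hw)/+ arrays (SD, n = 4 each), a difference of 1.90 that was not called (limma adjusted p = 0.0671). Drs encodes the antifungal peptide drosomycin, and Drsl5 and Drsl4 are drosomycin-like genes. Drs read -1.93, -1.09, -2.59 and -1.81 on su(Hw)/Df arrays, against -0.08, 0.15, 0.08 and 0.21 on su(Hw)/+ arrays. Drsl5 read -3.46, -1.63, -4.03 and -4.15 on su(Hw)/Df arrays, against -0.29, -0.67, -0.35 and -0.33 on su(Hw)/+ arrays. The falls were -1.95 ± 0.28 for Drs and -2.91 ± 0.47 for Drsl5 (SE; limma adjusted p = 0.007 and 0.0134), and the Drsl5 call was lost in 4 of the 8 fits without 1 array. Drsl4 had -2.34 but spread widely between arrays and was not called (limma adjusted p = 0.0738). Over 13 antimicrobial peptide genes 2 were called lower, 6 were above 0 and the median was -0.12 (-0.04 without the fourth su(Hw)/Df array).

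Genes of the salivary gland, the cuticle and juvenile hormone also held falls. Eig71Eh and Eig71Ei belong to the ecdysone-induced genes of the late puff 71E. Eig71Eh read -3.18, -2.84, -3.48 and -2.20 on su(Hw)/Df arrays, against -0.56, -1.17, -0.82 and -0.92 on su(Hw)/+ arrays. Eig71Ei read -2.63, -2.28, -3.07 and -2.54 on su(Hw)/Df arrays, against -0.67, -0.75, -1.14 and -1.16 on su(Hw)/+ arrays. Both genes lay below the pool in every larval sample of either genotype, and lower in su(Hw)/Df by 2.06 ± 0.27 and 1.697 ± 0.22 (SE; limma adjusted p = 0.00475 and 0.00411). The other 8 genes of the glue and late-puff list were not called, and the list median was -0.46. An unadjusted p under 0.05 was found for 3 of the 10 genes, all lower, and 7 were lower at that p without the fourth su(Hw)/Df array. Sgs4 and Sgs5, salivary glue genes, were lowest on the fourth su(Hw)/Df array, at -4.16 and -3.20. Ecdysone response regulators had 0 of 10 called, a median of -0.04 (-0.09 without the fourth su(Hw)/Df array), no unadjusted p under 0.05, and their differences lay between -0.20 and 0.15.

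Cpr49Ag, a cuticle protein gene, read -1.94, -2.04, -1.99 and -1.996 on su(Hw)/Df arrays, against -0.35, -0.72, -0.65 and -0.72 on su(Hw)/+ arrays. The difference of -1.38 ± 0.17 (SE, limma adjusted p = 0.0028) was the 1 call among 20 structural cuticle protein genes tested of 115 on the array, whose median was -0.31. Jhbp2, a juvenile hormone binding protein gene by name, read -1.64, -1.77, -1.87 and -1.30 on su(Hw)/Df arrays, against -0.20, -0.35, -0.29 and -0.35 on su(Hw)/+ arrays. The fall of 1.35 on the log2 scale (SE 0.18, limma adjusted p = 0.005) was the 1 call of 5 juvenile hormone genes, of which 4 were below 0 (median -0.82). Drice, an effector caspase gene, read -1.19, -0.88, -0.97 and -0.89 on su(Hw)/Df arrays, against -0.19, 0.75, 0.20 and 0.56 on su(Hw)/+ arrays. Its difference was -1.31 ± 0.22 (SE, limma adjusted p = 0.0188), called in 3 of the 8 fits without 1 array, and it was 1 of 6 cell death genes tested. Buffy, a Bcl-2 family gene, had -0.91 and was not called (limma adjusted p = 0.0955).

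Among the largest falls were genes whose roles are less clear. CG1468 fell by 2.80 on the log2 scale, CG8664 by 2.62, CG8661 by 2.61 and CG14062 by 1.97, with limma adjusted p between 0.00142 and 0.0274. CG1468 read -3.46, -2.65, -4.25 and -4.91 on su(Hw)/Df arrays, against -1.58, -1.09, -0.74 and -0.67 on su(Hw)/+ arrays. The probe named nrm, a cell adhesion gene, carries an older locus name that the gene table now gives to nrm, and fell by 2.07 (SE 0.34). All su(Hw)/Df arrays were below all su(Hw)/+ arrays for these 5 genes. Of the 8 fits without 1 array, CG8661 was called in 2 and nrm in 5.

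Some called genes lay near each other. Within 5 genes of gene order, 22 of the 80 called genes placed fell into 11 pairs, 5 of them direct neighbours, and both members went the same way in all 11. How often neighbours are called together, or go the same way, over all genes tested was not worked out. The pair of Cyp6d5 and Npc2b lay in the low stretch around su(Hw) described below. Examples of other pairs, named after their values were seen, were Vajk2 (2 probes, -1.69 and -1.32) with Vajk3 (-1.24), and CG7916 (-1.78) with CG8997 (-1.07). Others were CG8664 with CG8661, CG1468 with CG9686 (-1.22), CG14062 with CG33346 (-1.49), and Lapsyn (-1.08) with Ugt49B1 (-1.67). Of the 8 fits without 1 array, CG9686 and Lapsyn were each called in 2, the weaker Vajk2 probe in 5 and CG8997 in 6. Several pairs are members of 1 gene family whose probes may cross-hybridize, as in Hsp70Ba with Hsp70Bbb, and this was not tested. Called probes lay on every large arm, 23 of 1419 tested on 2L, 8 of 1573 on 2R, 17 of 1447 on 3L, 24 of 1843 on 3R and 9 of 1142 on X.

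**Figure D4:**
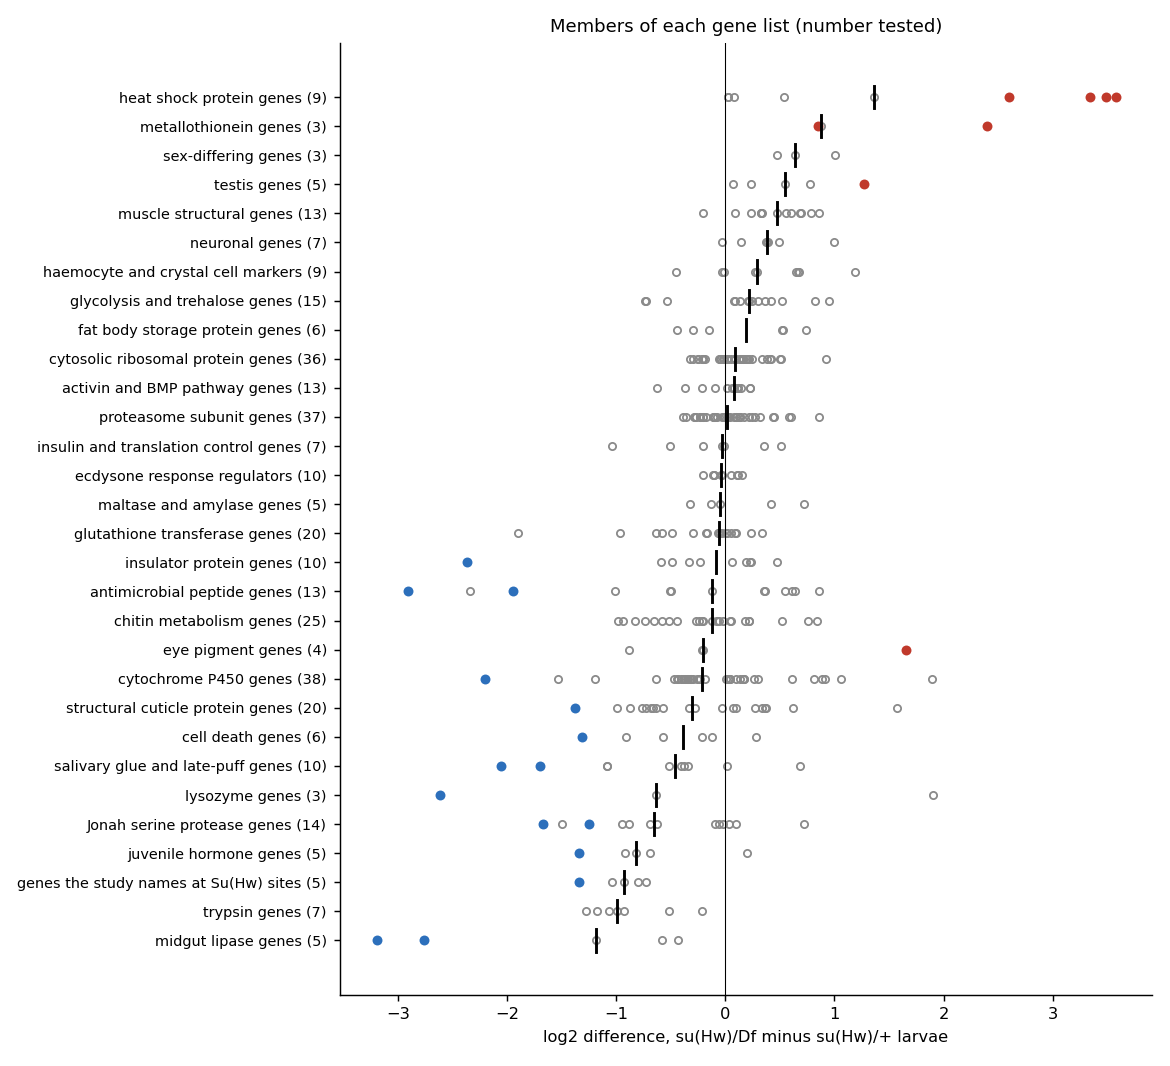
Each point is a tested member of a gene list, placed by its log2 difference, su(Hw)/Df minus su(Hw)/+ larvae; red points were called higher, blue points called lower, open points not called, and the bar is the list median. Medians run from -1.18 for 5 lipase genes to 1.36 for 9 heat shock genes.

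Markers of other larval tissues gave few calls. For muscle 12 of 13 structural genes were above 0, with a median of 0.48 and 0 called. At an unadjusted p under 0.05, 4 were higher, and 7 without the fourth su(Hw)/Df array. Mhc, the muscle myosin heavy chain gene, averaged 2.17 ± 0.56 on su(Hw)/Df arrays, against 1.31 ± 0.63 on su(Hw)/+ arrays (SD, n = 4 each), and was 1.33 on the fourth su(Hw)/Df array. The muscle medians of single arrays were 0.61, 1.30, 0.76 and -0.10 in su(Hw)/Df, against 0.21, 0.69, 0.36 and -0.02 in su(Hw)/+, so they overlapped. Neuronal genes had a median of 0.38, with cac, a calcium channel gene, at 0.997 (limma adjusted p = 0.195) and elav, a pan-neuronal marker, at 0.49. Fat body storage protein genes had a median of 0.18 and haemocyte and crystal cell markers of 0.29 (0.70 without the fourth su(Hw)/Df array), none of them called. Of 5 testis genes Mst87F, a male-specific gene, was called higher (1.27 ± 0.24 SE, limma adjusted p = 0.0315), with a list median of 0.55. This call held in 1 of the 8 fits without 1 array, and not without the fourth su(Hw)/Df array. It read -0.65, -0.37, -0.25 and 0.00 on su(Hw)/Df arrays, against -1.39, -1.34, -2.19 and -1.42 on su(Hw)/+ arrays. The male-limited dosage compensation RNA lncRNA:roX2 had 0.64 and lncRNA:roX1 0.47, and the female yolk protein gene Yp3 had 1.002, none called. The part of the sex ratio in these values was not tested.

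Most other lists held 0 or 1 call. The 10 insulator protein genes tested included su(Hw) itself as the only call. Cp190, whose protein acts with Su(Hw), had 0.48 and Ibf1, an insulator binding factor gene, -0.59, with limma adjusted p of 0.222 and 0.364. Of 38 cytochrome P450 genes 1 was called, Cyp6d5, and the median was -0.21. There were 0 calls among 20 glutathione transferase genes (median -0.06), 25 chitin metabolism genes (-0.12), 15 glycolysis and trehalose genes (0.22), 7 insulin and translation control genes (-0.03), 13 activin and BMP pathway genes (0.08), 36 cytosolic ribosomal protein genes (0.08) and 37 proteasome subunit genes (0.01). At an unadjusted p under 0.05, where 551 of 8431 probes were higher and 562 lower, 5 glutathione transferase genes were lower and 0 higher. Of the chitin genes 5 were lower and 2 higher, of the glycolysis and trehalose genes 3 lower and 1 higher, and the other 4 lists had 1 to 3 members each. Without the fourth su(Hw)/Df array the medians were -0.09 for the P450 genes with 2 called, -0.03 for the glutathione transferase genes, -0.24 for the insulin genes and 0.04 for the proteasome genes, and 1 chitin gene was called.

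Genes around su(Hw) were lower in su(Hw)/Df over a long stretch. The annotation held 163 genes that start within 600 kb on either side. Of the probes tested within 40 genes of su(Hw), itself not counted, 24 of 27 were below 0, with a median of -0.53. Further out in the same window 20 of 38 were below 0, with a median of -0.05, against 4242 of 8431 over all probes. In bins of 20 genes along the arm the median was 0.05 from gene -80 to -61, -0.86 from -60 to -41, -0.33 from -40 to -21 and -0.77 from -20 to -1. On the other side it was -0.55 from gene 1 to 20, -0.23 from 21 to 40 and -0.09 from 41 to 60. In Df/+ larvae, set against su(Hw)/+ as values, the medians in these 7 bins were -0.02, -0.57, -0.26, -0.26, -0.50, -0.64 and -0.09, against -0.04 over all 8197 probes with a value, of which 4536 were below 0. Both differences use the same 4 su(Hw)/+ arrays, so they are not independent. For genes that the deletion removes, a single copy and the loss of su(Hw) cannot be told apart by su(Hw)/Df minus su(Hw)/+ alone. Within 40 genes of su(Hw), the median of Df/+ minus su(Hw)/+ was -0.44. The median of su(Hw)/Df minus Df/+ was -0.06 there, against 0.02 over all probes. These medians were not tested. Where exactly the deletion begins and ends was not used here. The bins and the limit of 40 genes were chosen after the values were seen.

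**Figure D5:**
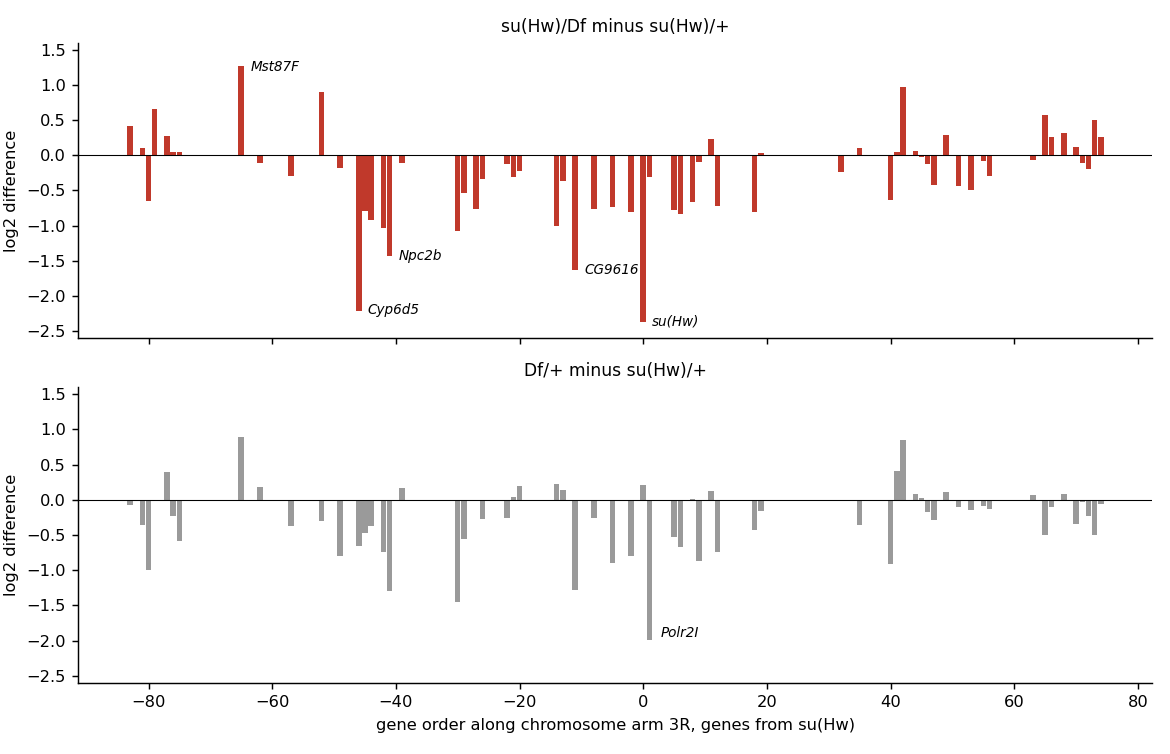
Log2 differences of genes by their order from su(Hw) on chromosome arm 3R, for su(Hw)/Df minus su(Hw)/+ larvae (top) and Df/+ minus su(Hw)/+ larvae (bottom). Bars from about gene -46 to gene 40 are mostly below 0 in both panels, which share the 4 su(Hw)/+ arrays; su(Hw) is low at the top only, and Polr2I at the bottom.

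Besides su(Hw), 4 called genes lay in this window. Npc2b, a gene of the sterol-binding NPC2 family, read -0.76, -0.78, -0.63 and -0.90 on su(Hw)/Df arrays, against 0.62, 0.67, 0.66 and 0.74 on su(Hw)/+ arrays. The difference was -1.44 ± 0.16 (SE, limma adjusted p = 0.00146), and Df/+ larvae, at -0.62, stood close to su(Hw)/Df. CG9616 had -1.63 ± 0.32 (SE, limma adjusted p = 0.0409), also with a low Df/+ mean of -0.84, and was called in 1 of the 8 fits without 1 array. Cyp6d5, a cytochrome P450 gene, read -2.33, -2.53, -2.82 and -2.47 on su(Hw)/Df arrays, against -0.26, -0.31, -0.53 and -0.22 on su(Hw)/+ arrays. Its fall was 4.62-fold (-2.21 ± 0.18 SE, limma adjusted p = 0.000185), while Df/+ larvae averaged -0.99, which is between both. Mst87F, the fourth, was higher in su(Hw)/Df and has been given above. Without the probes of this window, su(Hw) included, 86 calls remained, 29 higher and 57 lower. The gene put, an activin and BMP receptor gene 40 genes from su(Hw), had -0.63 (limma adjusted p = 0.248), with Df/+ at -1.21.

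Of the genes that the study names beside predicted Su(Hw) sites, all 5 tested were below 0, with a median of -0.93, and 1, Jhbp2, was called. foxo, a transcription factor gene of insulin signalling, read -0.41, -0.61, -0.57 and -1.41 on su(Hw)/Df arrays, against 0.41, 0.20, 0.29 and 0.26 on su(Hw)/+ arrays, a difference of -1.04 (limma adjusted p = 0.0605). CG9922 had -0.93 (limma adjusted p = 0.0629). wun and wun2, a pair of lipid phosphate phosphatase genes, had -0.80 and -0.73 (limma adjusted p = 0.055 and 0.197). The study chose these genes on the same arrays, so their direction is not independent evidence. foxo and CG9922 lay 42 and 44 genes from su(Hw), inside the low stretch, with Df/+ means of -0.45 and -1.004, against -0.27 for wun and -0.50 for Jhbp2. With the dye as a block, 4 of the 5 were called, and with the Df/+ arrays in the fit also 4.

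In the Adh region, the stretch of chromosome arm 2L over which the study mapped Su(Hw) binding, 125 of 229 genes were tested. ZnT35C was called higher, and CG7916, CG8997, Vajk2, Vajk3 and PRL-1, a phosphatase gene (-1.27), were called lower, 6 in all or 4.8% against 1.08% of all probes. These are 4 places at most, since CG7916 lies beside CG8997 and Vajk2 beside Vajk3. PRL-1 was called in 1 of the 8 fits without 1 array. The median of the region was 0.08, and 72 of 125 were above 0.

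Of the genes that the study gives as changed in both tissues, su(Hw) was called here, and the others that could be tested were not. The study set su(Hw)/Df against wild type, by fold change and a CyberT p-value, and then filtered on the heterozygotes. Contrast and threshold differ here, so a missing call does not speak against the study's change. Actbeta, an activin ligand gene, had too few su(Hw)/+ values for the test. It read 3.59, 2.45, 2.69 and 2.97 on su(Hw)/Df arrays, against -0.35 and 0.38 on the 2 su(Hw)/+ arrays with a value. CG9813 also had too few su(Hw)/+ values. Hsdl2, a hydroxysteroid dehydrogenase-like gene, averaged 3.10 ± 0.47 on su(Hw)/Df arrays, against 1.79 ± 0.59 on su(Hw)/+ arrays (SD, n = 4 each), a difference of 1.31 (limma adjusted p = 0.0914). GstZ1 had -0.96 (limma adjusted p = 0.177) and Sod3, an extracellular superoxide dismutase gene, -0.46 (0.26). The 4 probes of the splicing factor gene B52 had between 0.37 and 0.82, and the 3 probes of ImpL2, an insulin-binding protein gene, between 0.51 and 1.51. The translation factor gene eIF4E1 had -0.51 on 1 probe and 0.15 on the other, so its probes disagreed in direction. Both genotypes deviated from the pool in the same direction for Hsdl2, GstZ1 and Sod3.

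Set against the pool, the su(Hw)/Df mean was further out than the su(Hw)/+ mean for 21 of the 30 probes called higher and for 55 of the 61 called lower. For the other 9 rises and 6 falls, su(Hw)/+ was the genotype further from the pool; Mst87F (means of -0.32 in su(Hw)/Df larvae and -1.59 in su(Hw)/+ larvae) and MtnA were among these rises. The Df/+ mean was on the su(Hw)/+ side of the midpoint for 21 of 29 rises with enough values and for 48 of 61 falls. So 8 rises and 13 falls had Df/+ larvae nearer to su(Hw)/Df, CG3397, CG6283 and Npc2b among them. These probes were picked by the same difference that sets the midpoint, and the shares over all probes tested were not worked out. The counts are therefore a description of the called probes only.

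In wing discs, the imaginal epithelium that forms the wing, the same genotypes were compared on 8 other arrays that were normalized separately. There limma called 0 of 5848 probes (0.0%), with 122 at an unadjusted p under 0.05 (2.09%). The 8 disc arrays held 4972 to 11157 values each, against 9110 to 10604 on the 8 larval arrays. Per the paper, disc RNA was amplified and larval RNA was labelled directly. The lack of calls is therefore no measure of how little changed in discs. Of the larval calls, 13 rises and 18 falls could be tested in discs, and 10 and 11 of them had the same direction there. su(Hw) had -1.92 in discs, with a limma adjusted p of 0.19. Jhbp2 had -0.81, and these were the 2 larval calls with an unadjusted p under 0.05 in discs. Hsp70Bbb, Hsp70Ba, Hsp70Ab and Hsp68 had 0.65 ± 0.73, 0.78 ± 0.66, 0.84 ± 0.68 and 1.13 ± 1.05 in discs (SE), all above 0, with unadjusted limma p between 0.238 and 0.391. Whether larvae and discs differ in any of these genes was not tested.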

How the data were processed

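RNA of each genotype and pooled wild-type RNA were hybridized in 2 dyes to FL002 long-oligonucleotide arrays, with the dyes swapped on 2 of 4 arrays. Per the paper's methods, slides were scanned, spots found with Dapple, and the 12 larval slides normalized together with VSN. The authors deposited log2 ratios of genotype to pool, 1 per spot, turned for dye, with failed spots empty. The number of arrays limits the precision. The deposited p-values and averages of the study were not used, and 0 columns were left unassigned.

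Probes printed in 3 or 4 spots (714) were treated as controls and removed. Of 14444 probes, 12636 had 1 gene symbol, 105 of them from the study's tables, and 12598 matched a RefSeq gene table, used for names and gene order only. The 8 arrays were fitted in limma 3.58.1 (R 4.3.3) as genotype means with empirical Bayes moderation, without a block, for probes with at least 3 values per genotype. Adjusted p-values are limma's with Benjamini-Hochberg adjustment, threshold 0.05. The fit was tested on simulated data with known changes.

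A list was described by its calls and median, with 1 probe per gene. The members, the 30 lists, the Adh region and all tests were chosen with earlier results of these data known. Named genes were su(Hw), w, Polr2I, the 15 largest rises and falls among called probes with 1 symbol, called genes near su(Hw), up to 4 members per list, and genes the study names; 10 further probes were named after their values were seen. Alternatives were a replicate block, a dye block, centring, all 12 larval arrays, other minimum numbers of values, array weights and leaving out each array. Promoter sequences were not used here.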

Additional observations from a re-analysis of the deposited data

Results flagged for a closer look

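Dixon's test was run on 203 groups of 4 arrays, and in 15 of them 1 array stood far from the other 3; chance gives about 1 in 20. The fourth su(Hw)/Df array was the low one in 8. These were Jon99Fi (-0.52), alphaTry (-2.47), LysS (-2.53), Mhc (1.33), Mlp60A (-0.55), sls (-0.13), 1 probe of Vajk2 (-1.98) and Vajk3 (-1.57), each a log2 ratio to the pool. The first su(Hw)/Df array stood apart for CG8997 (-0.59). Among the su(Hw)/+ arrays, the third stood apart for Hsp60C (-1.75), Mst87F (-2.19) and lncRNA:roX1 (-1.98), the first for CG8661 (-0.35) and 1 probe of ImpL2 (0.36), and the fourth for Pxn (0.29). Of these genes Hsp60C, Mst87F, CG8661, CG8997, Vajk2 and Vajk3 were called.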

How the results depend on the processing

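All 91 probes kept their direction in every alternative fit that tested them. Their non-overlapping arrays fix this in advance, except where arrays were centred. With a replicate block 115 probes were called (39 higher, 76 lower), 78 of the 91 among them, and with the dye as a block 179 (70 higher, 109 lower). With all 12 larval arrays 167 were called (53 higher, 114 lower), and with values required on all 4 arrays 135 (53 higher, 82 lower). Centring each array gave 108 (41 higher, 67 lower), array weights 108 (39 and 69), and at least 2 values 73 (21 and 52). Leaving out 1 array gave 46 to 81 calls, 15 to 28 higher and 30 to 53 lower. Of 1568 alternative values of named probes, 100 lost a call, 50 gained one and 1 changed sign: the second eIF4E1 probe, at -0.012 without the third su(Hw)/Df array and between -0.012 and 0.24 over all fits without 1 array. Averaging spots by the median was not run, since each analysed probe had 1 spot, nor was the promoter motif search. Deviations of same-numbered samples of both genotypes correlated with r of 0.21, 0.03, 0.22 and 0.54, and those of other numbers in the same dye with 0.29, 0.08, 0.21 and 0.07. As 1 of the 4 was near 0, the numbers were not taken as pairs.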
